A study of Mus musculus with 35 samples.

Results

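A set of 50 genes of the cell division cycle was followed across 4 cell populations of the embryonic mouse brain at E14.5. The 50 were named one by one, by their roles in DNA replication, in the G2 phase and mitosis, in nucleotide supply, as cyclins with the factor E2F1, as cyclin-dependent kinase inhibitors and, for Neil3 and H2afx, in DNA repair and chromatin, out of 53465 genes listed in the bulk table. All 50 had values in the 12 bulk libraries and all passed the mean of 10 normalized counts used for testing; 48 of the 50 could be tested in single cells, where Kif20a and Ccne1 had too few transcripts.

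The study sorted dissociated wild-type brains into neural cells (negative for the markers of the other populations), mural cells (high PDGFRβ, the pericytes and smooth muscle cells of the vessel wall), endothelial cells (PECAM1 and CD102 positive) and microglia (CD11b positive, medium CD45; the well list names CD41 in place of CD11b). Each population gave 3 bulk RNA-seq libraries, here called the first, the second and the third replicate in the order of their numbers. Single cells were sorted into wells of plates 1, 2 and 3 (11 libraries, wild type, all 4 populations), and a further 12 libraries on plates 4, 5 and 6 are labelled as Mof knockout, without the driver, the allele or the sort gate. Mof encodes a histone acetyltransferase. The bulk neural libraries were made with the TruSeq kit and the other 3 populations with SMART-Seq v4 and Nextera XT, so in bulk the neural population and the kit cannot be told apart, while the other 3 populations share a kit. By the study's methods the bulk libraries and the wild-type single cells were each taken from 3 wild-type brains. No label ties a replicate number or a plate to a brain, so p-values measure the spread between these libraries or plates. The knockout plates held no wild-type cells, so genotype and plate cannot be told apart either.

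Cyclin-dependent kinases drive the division cycle and are switched on by cyclins whose levels rise and fall with each round. D cyclins act in G1 in response to growth signals, E cyclins with the transcription factor E2F1 start DNA replication, and A and B cyclins with CDK1 carry the cell through G2 and mitosis. The inhibitors p21 (Cdkn1a) and p27 (Cdkn1b) bind cyclin-kinase complexes. At this stage of brain development radial glia divide next to the ventricle and produce neurons that leave the cycle, while vessels grow into the tissue and microglia multiply within it.

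Promoters of cell cycle genes can carry short elements known from mitotic and from replication genes, and a few are shown for members whose values are described below. RefSeq windows of 300 bases (build GRCm38.p6; 250 bases before to 50 after the start) matched 40 of the 50 members, with 45 windows. Searched on both strands were the cell cycle genes homology region (CHR, TTTGAA), the CCAAT box (CCAAT) and E2F core motifs (TTTCCCGC, TTTGGCGC, TTTCGCGC and TTTGCCGC, of which complementary pairs may overlap). The CHR letters stood in 16 of 21 windows of mitosis and G2 members (76.2%), in 1 of 12 windows of replication members (8.33%) and in 17.9% of all 32851 promoter windows of this length. The E2F letters stood in 1 of 21 windows of mitosis and G2 members (4.76%), in 7 of 12 windows of replication members (58.3%) and in 2.26% of all windows. CCAAT boxes were found in 81% of the mitosis and G2 windows, 58.3% of the replication windows and 37.4% of all windows. A match is a description of letters and not a shown binding site. Neither motif followed the lists without exception: Ccnb1, Bub1, Nusap1, Cenpe and Birc5 of the mitosis list held no CHR letters, Mcm2 of the replication list held them, and Cdk1 held E2F letters. The first 5 sequences below are mitotic members, Ccnb1 without the CHR letters among them, and the last 3 are helicase subunits of the replication list; each runs 5′ to 3′ on the gene's strand, and capitals mark every match to the 3 motifs.
Ccnb1, chr13:100786437-100786736 (minus strand): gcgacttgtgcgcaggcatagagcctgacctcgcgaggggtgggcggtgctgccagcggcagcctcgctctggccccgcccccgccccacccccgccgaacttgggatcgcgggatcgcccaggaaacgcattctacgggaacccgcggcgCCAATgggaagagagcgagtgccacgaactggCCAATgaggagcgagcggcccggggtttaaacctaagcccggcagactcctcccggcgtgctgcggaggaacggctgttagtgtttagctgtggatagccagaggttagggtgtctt
Ccnb2, chr9:70421505-70421804 (minus strand): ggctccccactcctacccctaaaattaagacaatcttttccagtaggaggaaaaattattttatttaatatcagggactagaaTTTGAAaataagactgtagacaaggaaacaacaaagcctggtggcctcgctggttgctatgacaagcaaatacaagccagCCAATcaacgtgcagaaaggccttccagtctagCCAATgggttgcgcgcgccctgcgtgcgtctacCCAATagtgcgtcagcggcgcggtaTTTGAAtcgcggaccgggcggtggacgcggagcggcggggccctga
Cdc20, chr4:118437294-118437593 (minus strand): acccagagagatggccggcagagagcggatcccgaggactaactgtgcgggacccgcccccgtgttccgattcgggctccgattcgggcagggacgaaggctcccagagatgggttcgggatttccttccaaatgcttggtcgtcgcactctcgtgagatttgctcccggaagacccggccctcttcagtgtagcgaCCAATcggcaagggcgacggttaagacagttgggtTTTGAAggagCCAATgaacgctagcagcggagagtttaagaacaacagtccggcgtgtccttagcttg
Kif11, chr19:37376132-37376431 (plus strand): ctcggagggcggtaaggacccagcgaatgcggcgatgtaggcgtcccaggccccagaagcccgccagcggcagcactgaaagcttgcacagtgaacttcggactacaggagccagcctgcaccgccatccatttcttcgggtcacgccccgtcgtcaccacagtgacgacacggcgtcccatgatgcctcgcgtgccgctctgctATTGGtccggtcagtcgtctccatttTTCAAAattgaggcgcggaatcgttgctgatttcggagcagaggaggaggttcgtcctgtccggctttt
Mki67, chr7:135716330-135716629 (minus strand): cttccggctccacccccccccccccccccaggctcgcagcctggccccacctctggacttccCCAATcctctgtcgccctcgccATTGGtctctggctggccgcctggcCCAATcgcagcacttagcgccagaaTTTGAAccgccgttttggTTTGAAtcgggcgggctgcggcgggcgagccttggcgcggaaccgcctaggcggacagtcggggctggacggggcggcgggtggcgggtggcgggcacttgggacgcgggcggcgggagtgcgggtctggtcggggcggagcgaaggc
Mcm3, chr1:20820263-20820562 (minus strand): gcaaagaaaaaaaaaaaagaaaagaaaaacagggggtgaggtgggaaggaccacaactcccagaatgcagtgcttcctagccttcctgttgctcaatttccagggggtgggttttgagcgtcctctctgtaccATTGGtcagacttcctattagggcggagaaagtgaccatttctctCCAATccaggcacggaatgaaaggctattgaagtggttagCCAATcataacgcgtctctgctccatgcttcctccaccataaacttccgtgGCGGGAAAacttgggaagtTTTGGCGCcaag
Mcm5, chr8:75109259-75109558 (plus strand): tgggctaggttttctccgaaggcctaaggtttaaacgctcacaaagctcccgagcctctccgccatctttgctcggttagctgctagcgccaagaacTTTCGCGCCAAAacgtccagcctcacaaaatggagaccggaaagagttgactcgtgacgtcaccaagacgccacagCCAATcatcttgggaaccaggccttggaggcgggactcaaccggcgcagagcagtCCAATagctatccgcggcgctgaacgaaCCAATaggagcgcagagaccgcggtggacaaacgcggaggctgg
Mcm6, chr1:128359656-128359955 (minus strand): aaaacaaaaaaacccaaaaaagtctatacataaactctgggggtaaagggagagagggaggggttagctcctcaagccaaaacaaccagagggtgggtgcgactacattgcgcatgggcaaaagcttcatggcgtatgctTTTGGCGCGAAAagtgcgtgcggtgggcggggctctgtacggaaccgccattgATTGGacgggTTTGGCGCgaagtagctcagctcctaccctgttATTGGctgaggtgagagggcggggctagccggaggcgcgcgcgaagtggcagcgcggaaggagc

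The bulk libraries held 17638358 to 98414914 reads on genes. Values are normalized counts, that is, reads scaled by the study so that libraries can be compared. The median coefficient of variation of the 50 members over 3 libraries was 3.52% in the neural, 21% in the mural, 26.3% in the endothelial and 14.2% in the microglial group, so differences between the last 3 populations rest on noisier values. The 10 defining markers of each population were highest in their own libraries: mural markers summed to 736770 to 792535 in mural and to at most 7492 elsewhere, microglial markers to 348473 to 375664 in microglia and to at most 176 elsewhere, endothelial markers to 197858 to 233145 in endothelial and to 9429 to 12930 in mural libraries, and neural markers to 233921 to 246878 in neural libraries. Outside the neural libraries neural markers were highest in mural ones, at 56485 to 93133 against 31397 to 34945 in endothelial and 15556 to 21380 in microglial libraries. Progenitor markers (14 genes) had the same order, at 52661 to 73985, 43182 to 51286 and 15091 to 15470. Neuron markers (14 genes) in mural libraries overlapped with endothelial ones, at 2342 to 5104 against 2855 to 5224, beside 2052 to 2880 in microglial libraries. Mural libraries also held fibroblast markers (6 genes, 8873 to 11803, against at most 270 elsewhere) and endothelial libraries held erythroid markers (8 genes, 13281 to 34539, against 9124 to 11922 in neural, 1696 to 2209 in microglial and 253 to 598 in mural libraries). Fewer dividing cells and less RNA per dividing cell cannot be told apart in bulk samples. Whether these other cells contribute to the results below was not tested.

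Of the 50 members, 14 were higher and 3 lower in mural than in endothelial libraries, against a background of 13.5% of all 19765 tested genes higher and 14.3% lower (limma with Benjamini-Hochberg adjustment over all genes, call at an adjusted p under 0.05). Against microglia, 17 members were higher and 5 lower in mural libraries, where 17.9% and 20.1% of all genes were called. Endothelial cells had 6 members higher and 5 lower than microglia (12% and 10%), below the 15.3% and 17% of all genes. In neural libraries 7 members were higher and 16 lower than the mean of the other 3 populations, against 32.9% and 31.2% of all genes, which is below the background for the higher calls and near it for the lower ones. The median log2 difference of the 50 members was 0.37 for mural minus endothelial and 0.36 for mural minus microglia (0.00 and -0.05 over all genes), -0.06 for endothelial minus microglia (-0.07 over all genes) and -0.28 for neural minus the others (0.09 over all genes). Without the first replicate the mural minus endothelial median fell to 0.10. Under quantile normalization the neural median was -0.52 (-0.16 over all genes), so the neural result depended on the scaling. All 3 libraries of a population lay above the other 9 in 5 members (background 25.2%) for neural, 16 members (background 7.25%) for mural, 3 members (background 6.28%) for endothelial and 2 members (background 11.5%) for microglial libraries, where the background is the share of all tested genes. They lay below the other 9 in 15 members (background 17.3%) for neural, 0 members (background 4.3%) for mural, 1 member (background 2.99%) for endothelial and 3 members (background 5.97%) for microglial libraries.

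**Figure D1:**
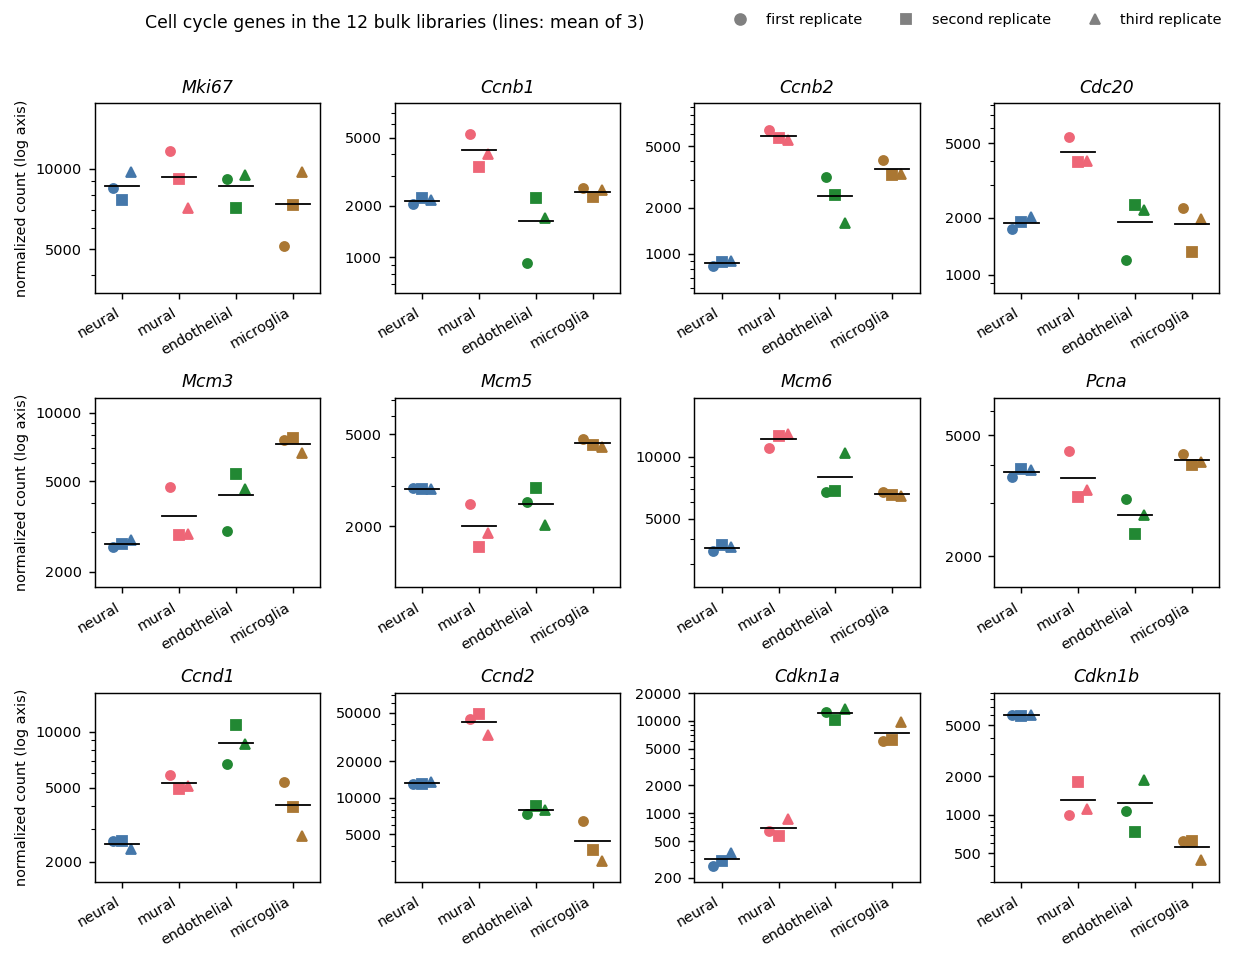
Normalized counts (log axis) of 12 cell cycle genes in the 12 bulk libraries, by population on the horizontal axis; symbols mark the replicate number and black lines the mean of 3 libraries. Mki67 overlaps in all populations, Ccnb1, Ccnb2, Cdc20, Mcm6 and Ccnd2 are highest in all 3 mural libraries, Mcm3 and Mcm5 in all 3 microglial libraries, and Cdkn1a splits endothelial cells and microglia from mural and neural cells.

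The proliferation marker Mki67, which coats mitotic chromosomes, was at a like level in every population. Its normalized counts were 8450, 7625 and 9757 in neural, 11699, 9136 and 7107 in mural, 9157, 7110 and 9512 in endothelial and 5159, 7323 and 9734 in microglial libraries, and no group stood apart from another. The log2 difference was 0.10 ± 0.24 (SE) for mural minus endothelial (limma adjusted p = 0.809) and 0.06 ± 0.20 for neural minus the others (adjusted p = 0.806). Top2a, the topoisomerase that untangles sister chromatids, read 12620, 12619 and 12494 in neural, 12092, 11211 and 7931 in mural, 8284, 8469 and 12776 in endothelial and 7952, 8204 and 9819 in microglial libraries. Its neural libraries lay within the range of the others. A call of 0.41 ± 0.15 in neural cells (limma adjusted p = 0.0383) was lost without the first replicate (0.39, adjusted p = 0.152), without the second replicate (0.38, adjusted p = 0.194) and under 4 other settings.

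Of the 25 mitosis and G2 members, 11 were higher and 0 lower in mural than in endothelial libraries (44%, against 13.5% of all genes higher), 14 were higher and 0 lower than in microglia (56%, against 17.9%), and 1 was higher (Kif23, of the central spindle) and 1 lower (Ccnb2) in endothelial cells than in microglia (background 15.3% and 17%), calls that were each lost in some alternatives. In neural libraries 4 were higher (Ccna2, Kif11, Bub1b and Top2a) and 6 lower, shares of 16% and 24% that lie below the 32.9% and 31.2% of all genes. Median log2 differences of the list were 0.63 for mural minus endothelial, 0.60 for mural minus microglia, 0.07 for endothelial minus microglia and -0.27 for neural minus the others. In 14 of the 25 all 3 mural libraries lay above all 9 others, the neural ones included, as they did in 7.25% of all tested genes. The neural and progenitor markers given above were also higher in mural than in endothelial and microglial libraries, while the neuron markers overlapped with endothelial ones. The part of such cells in these differences was not tested.

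Cyclin B1 (Ccnb1), the mitotic partner of CDK1, had normalized counts of 5302, 3400 and 4027 in mural, 930, 2239 and 1707 in endothelial, 2540, 2269 and 2466 in microglial and 2050, 2228 and 2163 in neural libraries. All 3 mural libraries were above the other 9. Here and below, a p in the same bracket as an alternative setting is the adjusted p under it. Ccnb1 was higher by 1.45 ± 0.28 (log2) than in endothelial cells (limma adjusted p = 0.00269, but 0.92 without the first replicate, whose endothelial library is the low one, and 1.56 and p = 0.054 without the third) and by 0.78 ± 0.28 than in microglia (adjusted p = 0.0447, but 0.88 and p = 0.0791 without the second replicate, 0.82 and p = 0.221 without the third replicate, and p = 0.0709 with the replicate block). Its relative Ccnb2 read 6338, 5671 and 5506 in mural, 3163, 2420 and 1588 in endothelial, 4091, 3247 and 3321 in microglial and 836, 885 and 903 in neural libraries. The 3 mural values were the highest and the 3 neural values the lowest of the 12. Ccnb2 was higher in mural than in endothelial cells by 1.34 ± 0.22 (adjusted p = 0.000945), a call that held in every alternative run.

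Kif2c, a kinesin that takes apart microtubules at centromeres, read 3674, 2007 and 2912 in mural, 289, 1248 and 1220 in endothelial, 1729, 1867 and 1912 in microglial and 1238, 1325 and 1331 in neural libraries. The difference of 1.87 ± 0.47 from endothelial cells (limma adjusted p = 0.0126, but 2.18 and p = 0.0752 without the third replicate) rested in part on the low endothelial library of the first replicate, and without that replicate it was 0.97. Kif20a, a kinesin of cytokinesis, read 4519, 4198 and 3257 in mural, 1283, 2204 and 1562 in endothelial, 1916, 1437 and 1402 in microglial and 1727, 1788 and 1863 in neural libraries. It was higher in mural cells by 1.27 ± 0.21 than in endothelial cells (adjusted p = 0.0013) and by 1.33 ± 0.21 than in microglia (adjusted p = 0.000541), and both calls held in every alternative run. Anln, which organizes the contractile ring, read 3139, 2659 and 2883 in mural against 607, 1218 and 1601 in microglial libraries, a difference of 1.45 ± 0.40 (adjusted p = 0.0146, but 0.99 and p = 0.135 without the first replicate, 1.75 and p = 0.0571 without the third replicate).

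Calls in both mural comparisons were also made for Tpx2 (spindle assembly; 0.996 ± 0.14 and 1.05 ± 0.14, limma adjusted p = 0.00033 and 0.000117), Cdc20 (activator of the anaphase-promoting complex; 1.27 ± 0.27 and 1.29 ± 0.27, adjusted p = 0.00547 and 0.00335), Bub1 (spindle checkpoint), Kif11 (spindle pole separation), Ube2c (ubiquitin transfer at mitotic exit) and Hmmr (spindle). Tpx2 held in every alternative in both comparisons and Cdc20 against microglia; against endothelial cells Cdc20 ranged from 0.82 to 1.52 over the alternatives and was not called without the third replicate. Cenpe and Cenpf (outer kinetochore), Birc5 (chromosomal passenger complex), Anln and Ccna2 passed the test against microglia and not against endothelial cells, and Cenpa (the centromeric histone) and Kif2c the other way round; whether those differences differ from each other was not tested. Over all roles, 4 of the 14 higher calls against endothelial cells (Ccnb2, Ccnd2, Kif20a and Tpx2) and 6 of the 17 against microglia (Ccnd2, Cdc20, Cenpe, Kif20a, Mcm6 and Tpx2) held in every alternative; with all 3 replicates kept, 12 of the 14 and 12 of the 17 did.

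Aurora kinases and the mitotic kinase Plk1 did not follow this pattern. Aurka read 1502, 831 and 1448 in mural and 2401, 1150 and 1092 in endothelial libraries, Aurkb 1563, 1858 and 1202 against 1024, 2971 and 2099, and Plk1 2214, 909 and 1807 against 870, 2033 and 1790. In each case the groups overlapped and the limma adjusted p was 0.586 or more. Cdk1 itself read 3700, 2885 and 2866 in mural, 2986, 3344 and 2531 in endothelial, 2374, 3074 and 2590 in microglial and 1813, 1919 and 1891 in neural libraries. Its 3 neural values were the lowest of the 12 (-0.63 ± 0.13, adjusted p = 0.00135, held in every alternative), and the other 3 populations overlapped.

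**Figure D2:**
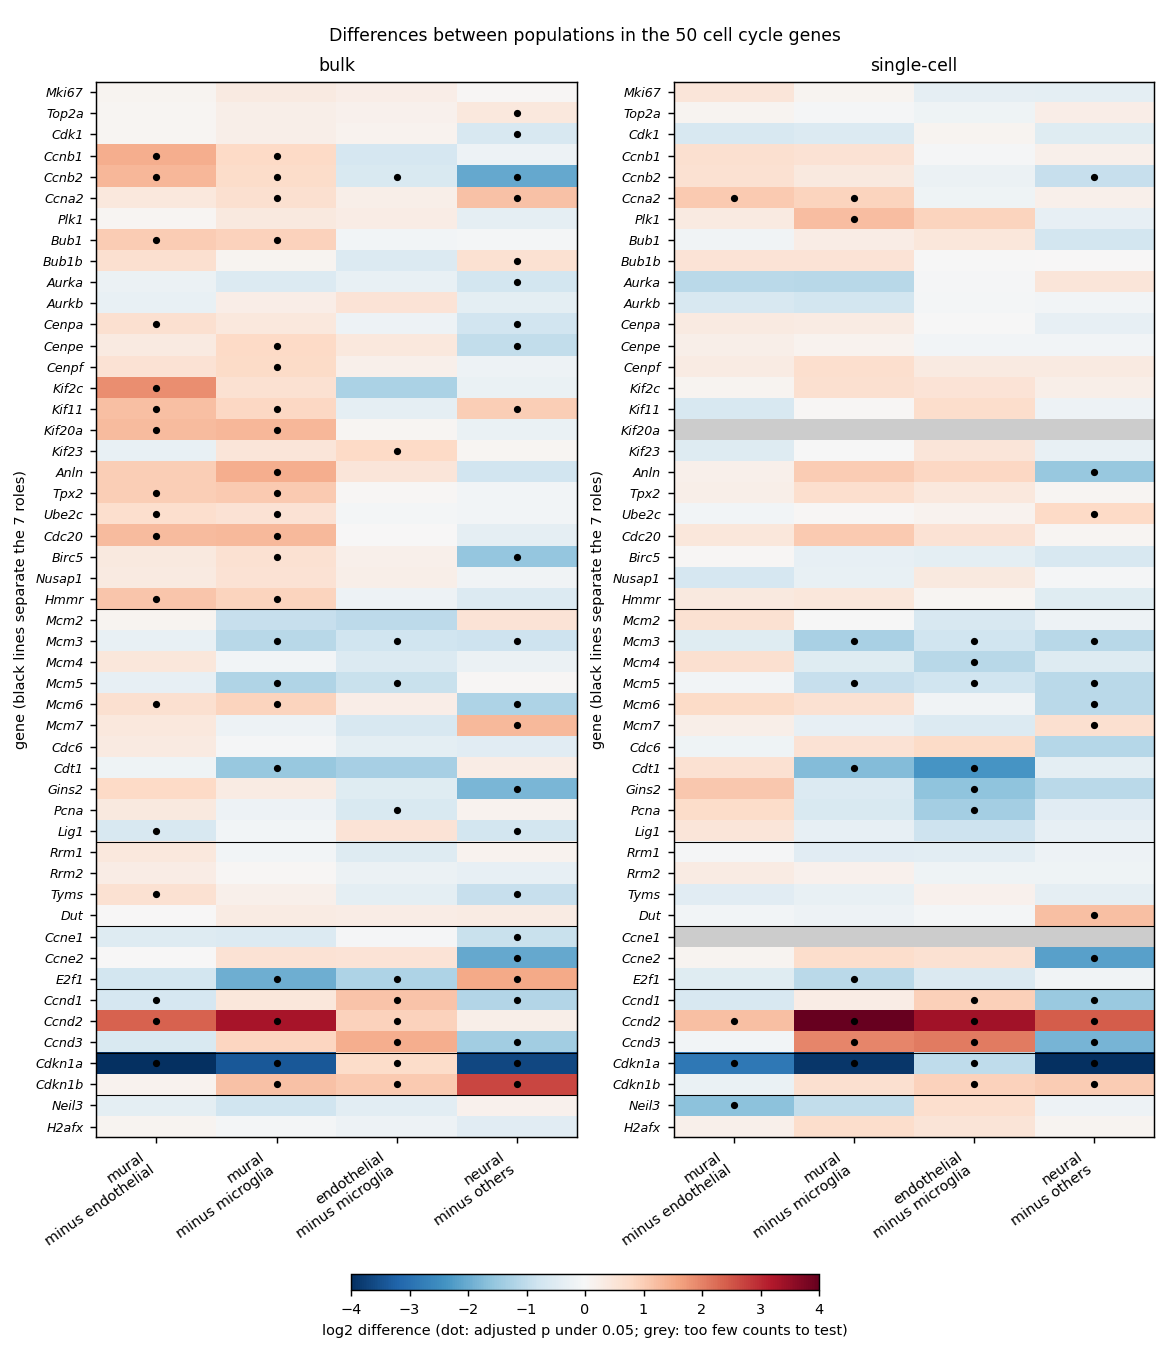
Log2 differences (colour) of the 50 cell cycle genes in 4 comparisons, in bulk libraries (left) and in sums of single-cell wells per plate and gate (right); dots mark an adjusted p under 0.05 and grey the 2 genes not tested. The upper block of mitotic genes is mostly red in the first 2 bulk columns, where 11 and 14 of 25 were called, and Ccnd2 and Cdkn1a carry the deepest colours in both assays.

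Among the replication genes Mcm3 and Mcm5 were highest in microglia. Of the 11 members, 3 were lower in mural than in microglial libraries (Mcm3, Mcm5 and Cdt1; 27.3%, against 20.1% of all genes) and 3 were lower in endothelial than in microglial libraries (Mcm3, Mcm5 and Pcna; 27.3%, against 17% of all genes), shares that lie near the background, while 1 (Mcm6) was higher in mural cells in both mural comparisons. The MCM proteins form the ring-shaped helicase that opens DNA at replication origins. Mcm3 read 7604, 7758 and 6626 in microglia, 4736, 2898 and 2917 in mural, 3014, 5405 and 4639 in endothelial and 2553, 2640 and 2767 in neural libraries, and Mcm5 read 4768, 4485 and 4409, 2490, 1639 and 1876, 2541, 2926 and 2033, and 2931, 2892 and 2902 in the same order. For both genes the 3 microglial libraries were the highest of the 12. Mural minus microglia was -1.09 ± 0.23 for Mcm3 (limma adjusted p = 0.00326, but not called without the second replicate or without the third replicate, with -1.30 to -0.93 over the alternatives) and -1.21 ± 0.17 for Mcm5 (adjusted p = 0.000232, held in every alternative), and endothelial minus microglia was -0.79 ± 0.23 (adjusted p = 0.0228, but -0.52 without the first replicate, p = 0.0702 without the second replicate and 0.102 without the third replicate) and -0.88 ± 0.17 (adjusted p = 0.00232, but p = 0.0526 without the third replicate).

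Mcm6, a subunit of the same ring, went the other way and read 11013, 12543 and 12842 in mural, 6723, 6791 and 10429 in endothelial, 6768, 6488 and 6445 in microglial and 3479, 3736 and 3642 in neural libraries. Mural values were the highest and neural values the lowest of the 12. Mural minus microglia was 0.88 ± 0.15 (limma adjusted p = 0.000941, held in every alternative), and mural minus endothelial was 0.63 ± 0.15 (adjusted p = 0.0108), not called without the first replicate or without the second replicate (0.51 to 0.80 over the alternatives). Mcm2 read 3641, 5002 and 3018 in microglia, 2013, 1558 and 2529 in mural, 882, 2740 and 2535 in endothelial and 3403, 3566 and 3590 in neural libraries, and none of its 4 comparisons passed the test (limma adjusted p = 0.0556 for endothelial minus microglia). Cdt1, which loads the helicase onto origins, read 839, 1916 and 2388 in microglia and 889, 431 and 421 in mural libraries; the difference of -1.52 ± 0.51 (adjusted p = 0.036) was -2.33 without the first replicate and was lost without the second replicate (-1.21, p = 0.195), without the third replicate (-1.03, p = 0.352) and without the neural libraries in the fit (adjusted p = 0.0853). Pcna, the sliding clamp of DNA polymerases, read 4328, 3988 and 4082 in microglia, 3087, 2365 and 2733 in endothelial, 4416, 3137 and 3311 in mural and 3647, 3855 and 3847 in neural libraries, and its endothelial values lay below the other 9 (-0.61 ± 0.15 against microglia, adjusted p = 0.00866, but p = 0.0766 without the second replicate and 0.091 without the third replicate).

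Lig1, the ligase that joins Okazaki fragments, was highest in endothelial libraries at 6283, 5089 and 5965, against 3919, 4671 and 2712 in mural ones. The mural minus endothelial difference of -0.65 ± 0.19 (limma adjusted p = 0.0276) was lost without the first replicate (-0.63, p = 0.149), without the third replicate (-0.40, p = 0.204) and in edgeR on recovered reads (adjusted p = 0.0638). In neural libraries Mcm7 was higher than elsewhere (5509, 5911 and 5878 against at most 3083; 1.31 ± 0.19, adjusted p = 0.000151, held in every alternative) and Gins2, of the replicative helicase complex, was lower (263, 295 and 307 against at least 434).

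Of the 4 genes of nucleotide supply, Tyms (thymidylate synthase) was called lower in neural cells (-0.93 ± 0.15, limma adjusted p = 0.000345, held in every alternative) and higher in mural than in endothelial cells (0.61 ± 0.19, adjusted p = 0.0341), the latter a call lost in 6 of 10 alternatives (0.34 to 0.88), among them the replicate block and leaving out the first or the second replicate. Rrm1, Rrm2 and Dut were called in no bulk comparison. Rrm2, the regulated subunit of ribonucleotide reductase, read 4694, 4821 and 4634 in neural, 8211, 5400 and 5884 in mural, 4403, 6560 and 4900 in endothelial and 6420, 6522 and 5489 in microglial libraries, with overlap among the last 3 populations.

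E cyclins were lowest in neural libraries. Ccne1 read 374, 392 and 396 in neural, 642, 443 and 631 in mural, 606, 867 and 979 in endothelial and 656, 782 and 1086 in microglial libraries. Ccne2 read 474, 506 and 500 in neural, 3110, 2139 and 1925 in mural, 2357, 2006 and 2588 in endothelial and 1800, 1202 and 1836 in microglial libraries. For both the 3 neural values were below the other 9 (-0.89 ± 0.22, limma adjusted p = 0.00431, and -2.05 ± 0.18, adjusted p = 3.36e-06; both held in every alternative), with the kit confounded. E2f1 ran against them at 1305, 1247 and 1214 in neural, 971, 1013 and 767 in microglial, 592, 221 and 451 in endothelial and 286, 139 and 323 in mural libraries, so that neural values were highest, again with the kit confounded. Single cells, given below, did not have neural values highest. Mural minus microglia was -1.95 ± 0.39 (limma adjusted p = 0.00239, held in every alternative); the endothelial minus microglia difference of -1.22 ± 0.39 (adjusted p = 0.0347) was lost without each replicate in turn (adjusted p = 0.0907 without the first, -0.74 and 0.0915 without the second and 0.117 without the third).

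The D cyclin Ccnd2 had another order of populations than Ccnd1 and Ccnd3. Ccnd2 (chromosome 6, 127125162 to 127152193, minus strand, GRCm38) read 43962, 48786 and 32570 in mural, 13059, 13051 and 13394 in neural, 7362, 8598 and 7996 in endothelial and 6423, 3686 and 3043 in microglial libraries. The 4 populations did not overlap and followed that order. Mural cells were higher by 2.37 ± 0.24 than endothelial cells (limma adjusted p = 3.26e-05) and by 3.31 ± 0.24 than microglia (adjusted p = 1.18e-06), and both calls held in every alternative. Endothelial minus microglia was 0.94 ± 0.24 (adjusted p = 0.0105, but p = 0.152 without the second replicate and 0.101 without the third replicate).

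Ccnd1 (chromosome 7, 144929931 to 144939925, minus strand) read 6703, 10810 and 8598 in endothelial, 5872, 4947 and 5135 in mural, 5396, 3937 and 2743 in microglial and 2577, 2594 and 2338 in neural libraries. Endothelial values were the highest and neural values the lowest, while mural and microglial values overlapped. Endothelial minus microglia was 1.14 ± 0.23 (limma adjusted p = 0.00298, but p = 0.076 without the second replicate and 0.0618 without the third replicate); mural minus endothelial was -0.69 ± 0.23 (adjusted p = 0.0484), which 7 alternatives moved past the threshold, among them the replicate block (p = 0.0604) and leaving out the second (-0.47, p = 0.375) or the third replicate (-0.66, p = 0.145). Ccnd3 read 1827, 6655 and 3149 in endothelial, 1944, 1227 and 4480 in mural, 1365, 1183 and 1142 in microglial and 763, 768 and 862 in neural libraries. It was higher in endothelial cells than in microglia by 1.46 ± 0.49 (adjusted p = 0.0406), and the call was lost without each replicate in turn (p = 0.0705 to 0.184, with a difference of 0.94 without the second) and with the replicate block (p = 0.0565). Per kilobase of exon, Ccnd2 was the leading D cyclin in mural cells (4440 normalized counts per kilobase against 1129 for Ccnd1 and 291 for Ccnd3) and in neural cells (1399 against 532 and 90.9), and Ccnd1 led in endothelial cells (1848 against 849 for Ccnd2) and microglia (855 against 466).

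The inhibitor genes split the populations further. Cdkn1a (p21; chromosome 17, 29090976 to 29100727, plus strand) read 12473, 10147 and 13536 in endothelial, 6042, 6175 and 9855 in microglial, 643, 566 and 873 in mural and 270, 307 and 371 in neural libraries. No populations overlapped, and the endothelial mean of 12052 ± 1733 (SD, n = 3) stood against 694 ± 159 in mural cells. Mural minus endothelial was -4.13 ± 0.24 (limma adjusted p = 7.24e-07) and mural minus microglia was -3.39 ± 0.24 (adjusted p = 9.72e-07); both held in every alternative. Endothelial minus microglia was 0.74 ± 0.24 (adjusted p = 0.0336), lost without the first replicate (0.59, p = 0.263), without the second replicate (0.75, p = 0.129) and in edgeR on recovered reads (adjusted p = 0.0522). Cdkn1b (p27; chromosome 6, 134920401 to 134925513, plus strand) read 6004, 5882 and 5996 in neural, 1000, 1791 and 1117 in mural, 1076, 731 and 1876 in endothelial and 618, 621 and 447 in microglial libraries. Neural values were the highest and microglial values the lowest. It was higher in neural cells by 2.68 ± 0.27 (adjusted p = 7.68e-06, held in every alternative); mural minus microglia was 1.18 ± 0.33 (adjusted p = 0.0145, but p = 0.0518 to 0.0701 when 1 replicate was left out) and endothelial minus microglia 1.03 ± 0.33 (adjusted p = 0.0316, but p = 0.142 without the first replicate, 0.52 and p = 0.319 without the third replicate and p = 0.0566 with the replicate block). Per kilobase of exon, Cdkn1a exceeded Cdkn1b in endothelial cells (3392 against 270) and in microglia (2071 against 124), and Cdkn1b exceeded Cdkn1a in neural cells (1309 against 89).

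Neil3, a glycosylase that repairs oxidized bases, read 771, 739 and 722 in neural, 925, 160 and 863 in mural, 1338, 398 and 529 in endothelial and 868, 787 and 982 in microglial libraries. H2afx, the histone variant marked at broken DNA, read 2699, 2360 and 2740 in neural, 4382, 2552 and 3998 in mural, 1949, 5124 and 3603 in endothelial and 4787, 3593 and 3107 in microglial libraries. Groups overlapped for both genes and no bulk comparison was called (limma adjusted p of 0.162 or more).

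Genes of the same pathways outside the 50 were counted in the same way, against the background shares given above for all genes. Among 30 other mitosis genes, 19 were higher and 1 lower in mural than in endothelial libraries (63.3% higher, background 13.5%) and 12 were higher and 1 lower than in microglia (40%, background 17.9%); endothelial cells had 2 higher and 7 lower than microglia (23.3% lower, background 17%), where the 25 members had 1 and 1. Ect2, which starts cleavage furrow formation, was 2.50 ± 0.31 higher in mural than in endothelial cells (limma adjusted p = 0.000156), and Incenp, of the chromosomal passenger complex, was lower in mural cells than in microglia (-1.47 ± 0.22, adjusted p = 0.000312). Of 30 other replication genes, 3 were higher and 1 lower in mural than in endothelial cells, 2 and 2 against microglia, and 0 and 5 in endothelial cells against microglia; Slbp, which binds histone mRNA, was higher in mural than in endothelial cells by 0.90 ± 0.11 (adjusted p = 0.000137) and Gins1 was lower in endothelial cells than in microglia (-1.20 ± 0.34, adjusted p = 0.0186). Of 26 other G1 and checkpoint genes 25 were tested, with 3 higher and 2 lower in mural than in endothelial cells, 4 and 5 against microglia, and 5 and 4 in endothelial cells against microglia. The replication counts were below or at the background in each of these comparisons (at most 16.7%, for lower in endothelial cells than in microglia), and the G1 and checkpoint counts ran from 8 to 20%, near it. Some of these differed widely between populations. Cdkn1c (p57) read 603, 409 and 257 in microglia against at least 3595 in every other library, and Btg2, an antiproliferative gene, read 64579, 53787 and 43835 in microglia against at most 9549. Cdkn2b (p15) was listed at 0 in all 3 microglial libraries and at 154, 302 and 265 in endothelial ones.

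Single cells were measured as transcripts (unique molecular identifiers) and summed over wells per plate and gate, which gave 12 sums. Of 994 sorted wild-type wells, 686 held over 1500 transcripts (123 neural, 210 mural, 225 endothelial and 128 microglia, with median transcripts per well of 7717, 6885, 6408 and 10761). Plate 3 gave only 6 to 14 wells per gate. The 10 markers of each population placed 121 of the neural, 194 of the mural and 204 of the endothelial wells in the population of their gate, and all but 2 microglial ones, while 15 of the 210 mural-gate wells were neural-like. Of the 225 endothelial-gate wells 9 were neural-like, 5 mural-like and 3 microglia-like. Barcodes that no well used held 1.83% of wild-type transcripts. Levels are given as CPM, a gene's transcripts relative to all transcripts of the sum, without correction for gene length. In the endothelial sum of plate 3 mural markers stood at 3135 CPM beside 3292 for endothelial markers. On plates 1 and 2 mural markers were at 498 and 113.

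Single-cell sums were tested in the same 4 comparisons (edgeR's quasi-likelihood test on the sums, Benjamini-Hochberg adjustment over 9281 genes). Neural wells had 5 members higher and 9 lower than the mean of the others, against 22.5% and 17.3% of all genes. Mural wells had 2 higher and 2 lower than endothelial wells (background 9.17% and 11.5%) and 4 higher and 5 lower than microglia (18.8% and 18.9%), and endothelial wells had 4 higher and 7 lower than microglia (18.7% and 17.5%). As shares of the 48 tested these counts are near or below the background. Of the 25 mitosis and G2 members 24 were tested, and only Ccna2 was called in mural against endothelial wells and only Ccna2 and Plk1 in mural against microglial wells. Ccna2, the cyclin of S phase and G2, was higher by 1.04 ± 0.32 (adjusted p = 0.0129) and Plk1 by 1.24 ± 0.44 (adjusted p = 0.0201), and each was lost in DESeq2 (p = 0.215 and 0.0507) and without plate 1 (p = 0.656 and 0.21) and was larger without plate 2 (1.74 and 2.51). Median differences of this list were 0.22 and 0.32. Over all 48 members the medians were 0.15 (mural minus endothelial), 0.08 (mural minus microglia), -0.03 (endothelial minus microglia) and -0.26 (neural minus the others), beside -0.01, -0.01, 0.04 and 0.04 over all genes. Without plate 3 the mural medians were -0.02 and -0.08, and without plate 2 the neural median was 0.23, so these 3 directions depended on the plates used. Mki67 stood at 140 CPM in neural, 212 in mural, 162 in endothelial and 204 in microglial wells, with an adjusted p of 0.35 or more in every comparison.

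Of all single-cell calls, those of Ccnd2 in 3 comparisons and of Cdkn1a in 3 comparisons held in every alternative, and the others were lost in at least 1. Members called in both assays had the same direction in 25 of 26 cases over the 4 comparisons, the exception being Cdkn1a in endothelial cells against microglia, and 97.6% of all genes called in both assays did, so this is no feature of the members. Against microglia those with the same direction were Mcm3, Mcm5, Cdt1, E2f1 and Cdkn1a (lower) and Ccna2 and Ccnd2 (higher) in mural cells, and Mcm3, Mcm5 and Pcna (lower) and Ccnd1, Ccnd2, Ccnd3 and Cdkn1b (higher) in endothelial cells. Microglial wells were higher than endothelial ones in 6 of 11 replication members, against 17.5% of all genes, and each of the 6 calls was lost in at least 1 of 7 alternatives. Mcm5 was called in 2 of the 7, Mcm3 in 3, and Mcm4 and Gins2 in 4. Among them were Cdt1 at 104 against 22 CPM (-2.35 ± 0.37 for endothelial minus microglia, edgeR adjusted p = 4.76e-07, but p = 0.0588 without plate 2), Pcna at 198 against 85 (-1.36 ± 0.29, adjusted p = 0.000129, but p = 0.0787 without plate 1 and 0.15 without plate 2) and Gins2 at 46 against 16 (-1.62 ± 0.45, adjusted p = 0.00275, but p = 0.249 in DESeq2, 0.337 without plate 1 and 0.272 without plate 2). In neural wells Dut, which keeps uracil out of DNA, stood at 97 against 38 to 40 in the other gates (1.22 ± 0.28, edgeR adjusted p = 0.000336, but p = 0.0856 without plate 1), and Ccne2 at 5.2 against 15 to 28 (-2.16 ± 0.63, adjusted p = 0.00419, but p = 0.0626 in DESeq2). E2f1, highest in the bulk neural libraries, stood at 40.4 in neural, 31 in mural, 39.6 in endothelial and 53.3 in microglial wells. Its neural difference was not called. Neil3 was lower in mural than in endothelial wells (-1.65 ± 0.53, adjusted p = 0.0172, but p = 0.472 in DESeq2) on 104 transcripts in all 4 gates.

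**Figure D3:**
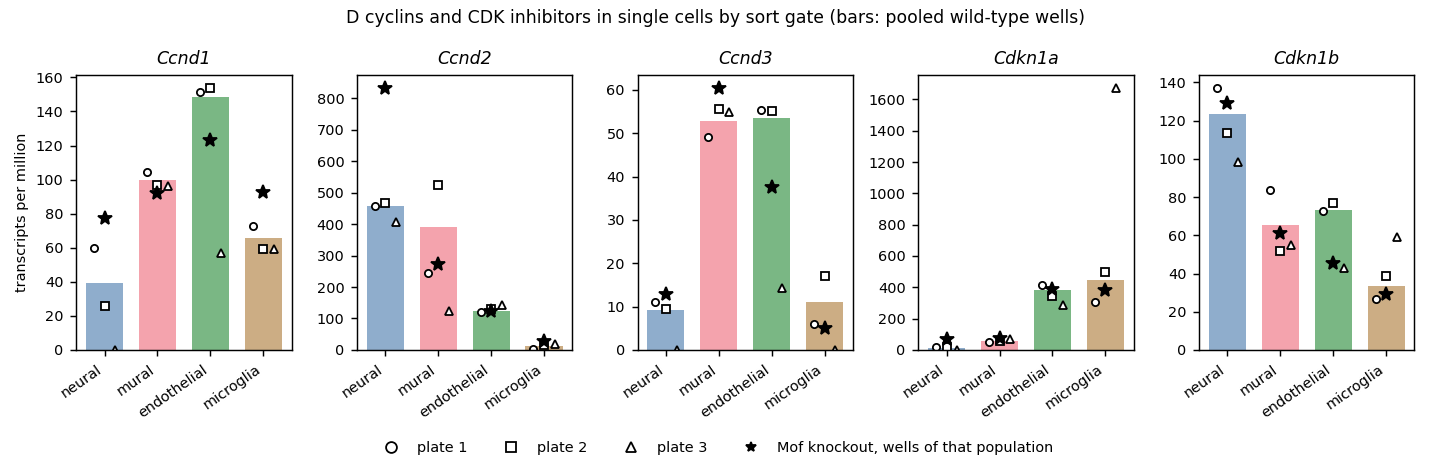
CPM of 3 D cyclins and 2 inhibitors by sort gate (horizontal axis) on wild-type plates 1 to 3; bars show pooled wells, open symbols each plate and stars the wells of the same population on the Mof knockout plates. Ccnd2 is near 0 in microglia, Cdkn1a is high in endothelial cells and microglia, and the microglial value of plate 3 (1675, from 6 wells) stands far above the others.

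Cyclin D2 gave the largest single-cell differences among D cyclins. Its level on plates 1, 2 and 3 was 456, 469 and 405 CPM in neural, 244, 524 and 124 in mural, 121, 129 and 142 in endothelial and 4, 17 and 20 in microglial wells. Microglial sums were the lowest on every plate, and mural and endothelial sums overlapped. Mural minus microglia was 4.57 ± 0.48 (edgeR adjusted p = 4.18e-12), endothelial minus microglia 3.36 ± 0.50 (adjusted p = 1.11e-07) and neural minus the others 2.41 ± 0.28 (adjusted p = 1.25e-10), all held in every alternative; in bulk the neural difference was 0.25 and was not called. Mural minus endothelial was 1.21 ± 0.34 (adjusted p = 0.00637, but p = 0.172 in DESeq2, 0.175 without plate 1 and 0.855 without plate 2, where it was 0.40). In mural-gate wells placed in the mural population by markers the level was 363 against 391 in the whole gate. A Ccnd2 transcript was seen in 48% of neural, 46.2% of mural, 41.3% of endothelial and 8.59% of microglial wells, although the microglial wells were the deepest. Ccnd3 followed with 53 in mural and in endothelial wells and 11 in microglia (mural minus microglia 1.95 ± 0.46, adjusted p = 0.000403, but p = 0.118 without plate 1), and Ccnd1 was 148 in endothelial, 100 in mural, 66 in microglial and 39 in neural wells (endothelial minus microglia 0.96 ± 0.30, adjusted p = 0.00941, but p = 0.145 in DESeq2, 0.241 without plate 1 and 0.466 without plate 2).

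Cdkn1a was at 413, 344 and 285 CPM in endothelial, 304, 496 and 1675 in microglial, 52, 56 and 69 in mural and 18, 17 and 0 in neural wells on plates 1, 2 and 3. Endothelial and microglial sums lay above all mural and neural sums. Mural minus endothelial was -2.86 ± 0.41 (edgeR adjusted p = 6.91e-08) and mural minus microglia -3.89 ± 0.42 (adjusted p = 9.43e-12), held in every alternative. Endothelial minus microglia was -1.03 ± 0.35 (adjusted p = 0.0176), opposite to bulk; without plate 3, which holds 6 microglial wells, it was -0.19 (adjusted p = 0.45). A Cdkn1a transcript was seen in 67.6% of endothelial and 71.9% of microglial wells, against 22.9% of mural and 9.76% of neural wells. Within the neural gate it was seen in 14.3% of wells with more neuron than progenitor transcripts and in 3.77% of the others, and how much of these low shares is free RNA was not tested. Cdkn1b was highest in neural wells (123 against 34 to 73; 1.03 ± 0.24, adjusted p = 0.00041, but p = 0.229 without plate 1 and 0.0706 without plate 2).

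To estimate the share of dividing cells from transcripts alone, each well was thinned to 1500 transcripts. It was called cycling if it then held transcripts of at least 2 of the 25 mitosis and G2 members or of at least 2 of the 15 replication and nucleotide members. Some members were common outside cycling wells. Before thinning Mcm6 was seen in 50.4% of mural and Mcm7 in 46.3% of neural wells not called cycling. The share of cycling wells was 33.3% in the neural gate (41 of 123; exact binomial interval 25.1 to 42.4%), 46.2% in the mural gate (97 of 210; 39.3 to 53.2%), 35.6% in the endothelial gate (80 of 225; 29.3 to 42.2%) and 52.3% in the microglial gate (67 of 128; 43.3 to 61.2%). Intervals cover counting error only. Without thinning the shares were 74.8%, 75.2%, 79.6% and 91.4%. Over plates the mean was 32 ± 9.63% (SD, n = 3) in neural, 53.2 ± 14.8% in mural, 32 ± 7.91% in endothelial and 41.7 ± 21.9% in microglial wells, with plate 3 at 70% of 10 mural and 16.7% of 6 microglial wells. Over 20 further draws of the thinning, chosen after seeing the data, the pooled shares averaged 34.4% in neural, 41.9% in mural, 36.7% in endothelial and 54.2% in microglial wells. The mural draws ran from 37.1 to 44.8%, all below the 46.2% given above.

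None of the 4 differences passed an exact two-sided permutation test over plates with adjustment over the 4. Mural minus endothelial was 21.2 points (p = 0.1, the smallest that 3 against 3 plates allow; adjusted p = 0.4), but 12.1 points in the mean of 20 thinning draws, 8.34 without plate 3 and -0.44 without thinning. Neural minus the others was -10.3 points (exact permutation p = 0.336, adjusted 0.6), mural minus microglia was 11.5 points (exact permutation p = 0.6) and endothelial minus microglia was -9.67 points (exact permutation p = 0.5). The sign of mural minus microglia turned without plate 3 (-9.37 points), without thinning (-10.5 points), with wells over 3000 transcripts (-3.86 points) and in the mean of 20 thinning draws (-0.40 points). Counting mitosis and G2 members alone, 15.4% of neural wells against 24.9 to 28.9% of the other gates were cycling (-12.1 points over plates, exact permutation p = 0.0364, adjusted 0.145). By replication and nucleotide members alone the neural share was 26% against 26.7 to 43.8% (-4.33 points, exact permutation p = 0.646, adjusted 0.861).

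**Figure D4:**
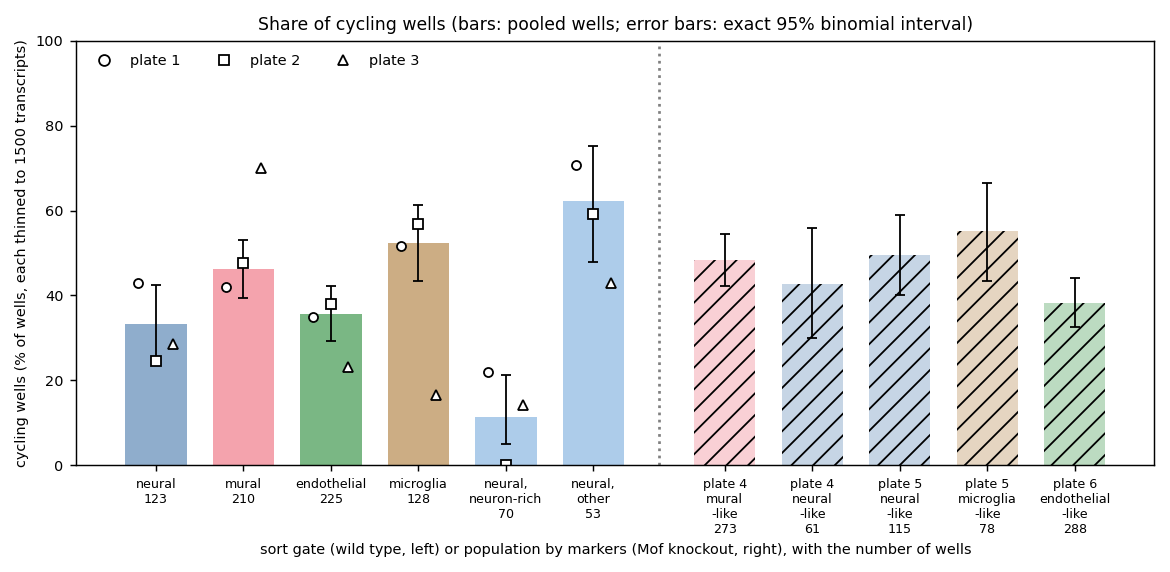
Share of cycling wells (% of wells, each thinned to 1500 transcripts) by wild-type sort gate (left) and by marker-based population on the Mof knockout plates (right), with the number of wells under each bar; error bars are exact 95% binomial intervals over wells and open symbols are single plates. Neuron-rich neural wells lie at 11.4% and the other neural wells at 62.3%, with the other gates in between.

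The neural gate was a mixture in this respect. Split by summed transcripts of 14 neuron and 14 progenitor markers, 70 of its 123 wells held more neuron than progenitor transcripts, and 12 wells lay within 3 transcripts of that line. Of the neuron-rich wells 8 of 70 were cycling (11.4%, 5.06 to 21.3%), and of the other neural wells 33 of 53 (62.3%, 47.9 to 75.2%), at like depth (median 7828 and 7636 transcripts). The shares without thinning were 67.1% and 84.9%, so at full depth the rule called most neuron-rich wells cycling too. The order held on each plate, at 21.9% against 70.8%, 0% against 59.1% and 14.3% against 42.9%. Mki67 was at 14 CPM in neuron-rich and 315 in other neural wells, Top2a at 8.9 and 488, Ccnd2 at 105 and 946 and Cdkn1b at 87 and 173. Wells share a plate and a sort, so no test over wells was made.

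The 10 members that the cycling rule did not use were compared between cycling and other wells of the same gate, as a description. H2afx was higher in cycling wells in 8 of 8 gate and plate pairs of plates 1 and 2, at 171 against 13 CPM in neural, 113 against 22 in mural, 134 against 18 in endothelial and 52 against 20 in microglial wells. Neil3 was likewise higher in 8 of 8 pairs, at 40 against 4.7, 17 against 2.7, 77 against 1.9 and 30 against 1.6 in the same order of gates. Ccne2 and Ccnd1 were also higher in 8 of 8 pairs, although Ccne2 rested on 3 and 1 transcripts in cycling against 0 and 1 in other neural wells of plates 1 and 2, and stood at 8.67 against 6.07 in microglia of plate 1. Cdkn1a differed from these and was lower in cycling wells in 7 of 8 pairs, yet at close levels, 359 against 394 in endothelial and 454 against 434 in microglial wells when pooled, and 68.8% of cycling endothelial and 68.7% of cycling microglial wells held a Cdkn1a transcript. The exception among the pairs was microglia on plate 2, at 638.5 against 293.5. Cdkn1b was higher in cycling wells in 6 of 8 pairs, as was E2f1, at 125 against 122 in neural, 60 against 70.5 in mural, 95 against 61 in endothelial and 47 against 19 in microglial wells. Ccnd2 was higher in cycling wells in 5 of 8 pairs, at 1008 against 174 in neural and 484 against 289 in mural wells, the latter from plate 2 (732 against 310.6), since plate 1 had 225.5 against 262.7, and at 126.2 against 124.2 in endothelial wells. Plate 3, with 1 to 7 cycling wells per gate, was not among these pairs. There Ccnd1 was lower in cycling mural, endothelial and microglial wells. H2afx there was lower in cycling neural and microglial and higher in cycling mural and endothelial wells.

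**Figure D5:**
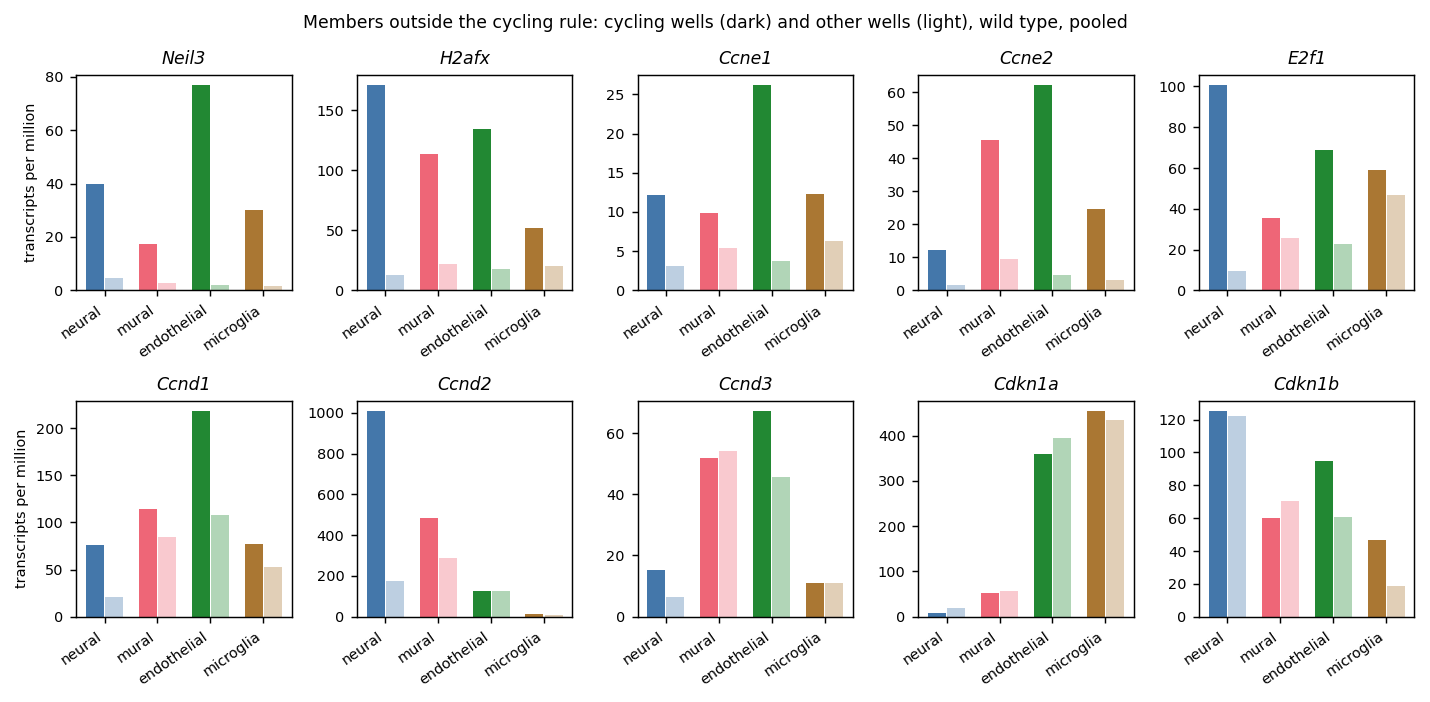
CPM of the 10 members outside the cycling rule in cycling wells (dark bars) and other wells (light bars) of each wild-type gate, pooled over plates. Neil3, H2afx and Ccne2 are higher in cycling wells of every gate, from 52 against 20 for H2afx in microglia to 77 against 1.9 for Neil3 in endothelial cells, and Cdkn1a is at close levels in both kinds of endothelial and microglial wells.

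Knockout plates 4, 5 and 6 were described by plate and compared with no test, since no wild-type library shares their plates. On plate 4, 337 wells held over 1500 transcripts and 273 were mural-like; on plate 5, 195 wells held 115 neural-like and 78 microglia-like ones; on plate 6, 288 of 350 wells were endothelial-like. Cycling shares were 47.2% (41.8 to 52.7%), 51.3% (44 to 58.5%) and 36% (31 to 41.3%), and ranged over the 4 libraries of each plate from 41.5 to 51.7%, 43.6 to 58.1% and 31.3 to 40.7%. By population they were 48.4% in mural-like wells (42.3 to 54.5%), 55.1% in microglia-like wells (43.4 to 66.4%) and 38.2% in endothelial-like wells (32.6 to 44.1%), beside 46.2%, 52.3% and 35.6% in the wild-type gates (41.9%, 54.2% and 36.7% over the 20 draws). Neural-like wells reached 42.6% on plate 4, where 1 of 61 was neuron-rich, and 49.6% on plate 5, and on plate 5 8 of 55 neuron-rich wells were cycling and 49 of 60 others (81.7%).

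Among single members on the knockout plates, Cdkn1a was again higher in endothelial-like and microglia-like than in mural-like and neural-like wells. It was at 75 CPM in mural-like wells of plate 4, 388 in endothelial-like wells of plate 6, and 385 in microglia-like and 71 in neural-like wells of plate 5. Wild-type wells of each gate placed in the same population by markers had 57, 413, 446 and 16, with microglia highest. That order rested on plate 3, at 1675 in 6 wells of the microglial gate. Without plate 3 the endothelial minus microglia difference was -0.19 (edgeR adjusted p = 0.45). Ccnd2 stood at 275, 124, 29 and 834, beside 363, 122, 11 and 458 in the wild-type wells so placed. In neural-like wells of plate 5 Rrm2 was at 245, Pcna at 279 and Dut at 194, beside 95, 111 and 97 in the wild-type neural gate, whose neuron-rich share of wells was larger (70 of 123 against 55 of 115). The 61 neural-like wells of plate 4 differed from those of plate 5. They had Rrm2 at 153.5, Pcna at 223, Dut at 77.6, Cdkn1a at 15.2 and Ccnd2 at 523. Of these 61 wells 1 was neuron-rich, so the whole wild-type neural gate is not a like comparison for them. Wild-type neural wells that were not neuron-rich had Rrm2 at 205.6, Dut at 166.0 and Ccnd2 at 946.5, all above plate 4. Their Pcna and Cdkn1a lay below plate 4. Mcm5 was at 100.9 in mural-like, 45 in endothelial-like and 127 in microglia-like wells, beside 64, 72 and 112 in wild-type wells placed in the same populations. Whether genotype, plate, litter or cell composition bears on these values was not tested.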

How the data were processed

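Bulk values were deposited by the authors as normalized counts per gene (a signal with no unit of its own; DESeq2, STAR, featureCounts and build mm10 stand in the submitters' processing notes). Whole reads were recovered from them: 100% of 124078 values of up to 100 reads were whole within 0.01. Of 53465 genes listed, 53274 were in the annotation. Library depth ran from 17638358 to 98414914 reads on genes. Single-cell values, made with mCEL-Seq2 and BWA 0.6.2-r126, were deposited by the authors as other values, namely expected counts of transcripts corrected for collisions among 4096 identifiers. They were summed and rounded to whole numbers here.

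Bulk libraries were tested with limma 3.58.1 (trend) on log2(normalized count + 1), for 19765 genes with a mean of at least 10. Wells with over 1500 transcripts were summed per plate and gate and tested with edgeR 4.0.16 (quasi-likelihood, TMM, filterByExpr; 9281 genes). Adjustment was by Benjamini-Hochberg over all genes tested, and calls were made at an adjusted p under 0.05. Shares of cycling wells were compared by exact two-sided permutation over plates. The members, pathway lists, markers and tests were chosen with earlier results of these data known. Genes named with values were a given set of key members, the 3 called members with the largest difference in each direction per comparison, and the 2 largest in each direction of the other lists; a few more members were named after their values were seen. Same-numbered bulk libraries deviated together with r of -0.054 to 0.0801, so numbers were not treated as pairs. Alternatives were another pseudocount, filter, scaling, tool (DESeq2 1.42.0), replicate block, thinning, well minimum, and each replicate or plate left out. The tests were checked on simulated data. Python 3.11.15 and R 4.3.3 were used.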

Additional observations from a re-analysis of the deposited data

How the results depend on the processing

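Of 34 named bulk calls 19 were lost in at least 1 alternative and 0 reversed; of 26 named single-cell calls 20 were lost and 0 reversed. The number of members called in bulk was 11 for endothelial minus microglia, 6 with no minimum, 5 without the neural libraries and 2 to 7 when 1 replicate was left out. The same exclusion gave 10 to 11 for mural minus endothelial (17 with all), 12 to 16 for mural minus microglia (22) and 20 to 22 for neural minus the others (23). Calls over all genes fell too when 1 replicate was left out, to 4790 to 4908 for endothelial minus microglia (6401 with all), 3517 to 3996 (5496), 5508 to 5962 (7511) and 10499 to 10797 (12680) in the same order; with no minimum endothelial minus microglia had 6221 and without the neural libraries 4907. In single cells DESeq2 called 8 members for neural minus the others (14 in edgeR), 1 for mural minus endothelial (4), 3 for mural minus microglia (9) and 4 for endothelial minus microglia (11), and leaving out 1 plate gave 4 to 19, 1 to 9, 2 to 15 and 3 to 14 members, and 1508 to 4474, 571 to 2561, 1446 to 4288 and 1291 to 4147 of all genes. Over all genes DESeq2 called 2419, 794, 2074 and 1905, beside 3694, 1919, 3498 and 3358 in edgeR.

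With the replicate block the members called were 22, 16, 21 and 10 in bulk (neural, mural minus endothelial, mural minus microglia, endothelial minus microglia) and 14, 6, 12 and 12 in single cells, beside 12484, 5174, 7183 and 6116 of all genes in bulk and 3920, 2113, 3712 and 3629 in single cells. Same-plate sums correlated with r of -0.0346 to 0.0983, under the 0.1 used as the mark of pairing. Permutation within plates, as a replicate block, gave exact p = 0.375, 0.25, 1.0 and 0.5 for the 4 differences in cycling shares.

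Without thinning, the difference in cycling share was -0.44 points for mural minus endothelial, a reversal, and -10.5 points for mural minus microglia, which was -3.86 with wells over 3000 transcripts and -0.40 in the mean of 20 draws. Leaving out 1 plate gave 8.34 to 28.3, -9.37 to 22, -17.7 to -5.08 (endothelial minus microglia) and -15.5 to -4.02 points (neural). Knockout plates 4, 5 and 6 had 87.5%, 83.6% and 66% cycling wells without thinning and 69.9%, 68.8% and 52% with wells over 3000 transcripts. Unthinned wells and wells over 3000 transcripts are read at more transcripts per well, and unthinned 67.1% of neuron-rich neural wells were called cycling. The cause of the other shifts was not tested.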
